A study of Mus musculus with 12 samples.

Results

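Cbfa2t3, Ngfr and Sema7a were the 3 of 56350 genes in the count table, and of 16484 genes tested, that were upregulated by FG-4592 in mesenchymal stem cells (MSCs) and downregulated by it in osteocytes. They were chosen by these responses, each past a log2 fold change of 1 in size with a false discovery rate (FDR, edgeR) under 0.05 in both cell types, so their responses to FG-4592 are described here without a test. The study sought the factors in osteocytes that tie oxygen and iron sensing to production of the hormone FGF23. RNAseq was done on 12 libraries, 3 from each of 4 conditions, of MPC2, a mouse mesenchymal stem cell line that is a single conditionally immortalized clone. The MSCs were undifferentiated MPC2 cells kept at 33 °C, and the osteocytes were MPC2 cells differentiated for 3 weeks at 37 °C with beta-glycerophosphate and ascorbic acid. Cells of each type received the vehicle DMSO or 50 µmol/L FG-4592 (roxadustat) for 48 hours. Temperature and media changed together with differentiation, and their parts in a difference between the cell types cannot be told apart.

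FG-4592 inhibits the prolyl hydroxylases that mark hypoxia-inducible factors (HIF) for degradation, so that HIF accumulates as it does at low oxygen. Cbfa2t3 encodes a nuclear corepressor of the ETO family, best known in blood progenitors, which brings NCoR and histone deacetylases to DNA-bound factors. Ngfr encodes the p75 neurotrophin receptor, a member of the TNF receptor superfamily that binds neurotrophins with Trk receptors and sortilin and marks neural crest and Schwann cells and some mesenchymal cells. Sema7a encodes a membrane-anchored semaphorin, which signals through integrins with the beta1 subunit and through plexin C1.

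The 3 genes lie on different chromosomes. Cbfa2t3 (ENSMUSG00000006362.16) spans chr8:122625141-122699109 of mm10 on the minus strand, with 8373 exonic bases. Ngfr (ENSMUSG00000000120.6) spans chr11:95568818-95587735 on the minus strand, with 3446 exonic bases. Sema7a (ENSMUSG00000038264.8) spans chr9:57940112-57962865 on the plus strand, with 3298 exonic bases. Of the Cbfa2t3 exons, 295 bases also belong to Gm10612 on the opposite strand, and reads of the pair cannot be told apart there because strand was not used in counting. Ngfr and Sema7a share no exonic base with another gene. No other gene matched Ngfr or Sema7a over at least 100 bases at 97% identity or more.

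Because the genes moved together, the sequence before each start is shown, from RefSeq on GRCm38.p6 and without any base that the count annotation makes exonic. Capitals mark ACGTG or GCGTG, the core that HIF binds, on the strand printed or the other. The windows are chr8:122699110-122699359 and chr8:122678176-122678425 for the outer and the inner start of Cbfa2t3, both on the minus strand. Those of Ngfr and Sema7a are chr11:95587736-95587948 on the minus strand and chr9:57939862-57940111 on the plus strand.
Cbfa2t3, outer start: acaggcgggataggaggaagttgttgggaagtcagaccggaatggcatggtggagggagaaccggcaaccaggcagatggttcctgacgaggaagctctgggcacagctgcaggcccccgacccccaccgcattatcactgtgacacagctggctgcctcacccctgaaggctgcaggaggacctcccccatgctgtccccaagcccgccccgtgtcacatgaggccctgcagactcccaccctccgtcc
Cbfa2t3, inner start: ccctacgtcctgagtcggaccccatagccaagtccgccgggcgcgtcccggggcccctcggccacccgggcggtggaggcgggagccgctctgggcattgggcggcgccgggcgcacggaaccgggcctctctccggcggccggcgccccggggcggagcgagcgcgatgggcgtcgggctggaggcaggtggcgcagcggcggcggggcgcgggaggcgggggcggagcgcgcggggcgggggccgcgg
Ngfr: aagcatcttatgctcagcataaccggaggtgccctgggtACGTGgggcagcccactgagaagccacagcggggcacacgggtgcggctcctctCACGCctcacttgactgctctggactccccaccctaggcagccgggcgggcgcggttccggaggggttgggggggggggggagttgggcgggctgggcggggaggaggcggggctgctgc
Sema7a: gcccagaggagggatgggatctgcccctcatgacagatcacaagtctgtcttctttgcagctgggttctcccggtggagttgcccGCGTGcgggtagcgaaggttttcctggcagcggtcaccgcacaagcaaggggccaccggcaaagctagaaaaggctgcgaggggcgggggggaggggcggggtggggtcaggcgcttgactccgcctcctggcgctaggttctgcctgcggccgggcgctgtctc
The window of Ngfr holds 2 matches, ACGTG on the printed strand, 211 bases before the RefSeq start, and GCGTG on the other strand, 157 bases before it. That of Sema7a holds 1 match, GCGTG on the printed strand, 165 bases before the start. Neither Cbfa2t3 window holds these letters. Among all 32851 promoter windows, 38.6% held a match in 250 bases and 33.6% in 213 bases, the length left for Ngfr. All 4 windows were rich in G and C, which made up 64% and 83.2% of the Cbfa2t3 windows, 70.9% of that of Ngfr and 66.4% of that of Sema7a. A match is a run of letters, and binding was not measured in these libraries.

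Total counts per library ranged from 52829185 to 68108470. A count of 0 allows up to 3 counts, which corresponded to between 0.0447 and 0.0545 CPM, the unit used for counts scaled to the TMM-adjusted library total, and this floor covers counting error only. Libraries of a condition differed from one another by more than counting noise in all 12 pairs, with squared differences 9.51 to 36.3 times those that counting alone gives. The labelled cell type was checked against its markers. Of the osteocyte genes, Dmp1 averaged 1.19 CPM in vehicle-treated MSCs and 11.2 CPM in vehicle-treated osteocytes, and Phex 0.977 and 57.6 CPM. In the same conditions Bglap averaged 0.232 and 4.57 CPM, Bglap2 1.34 and 7.61 CPM, Spp1 3160 and 5510 CPM and Sp7 66.5 and 90.5 CPM. Other genes of the list of 13 were lower or alike in vehicle-treated osteocytes, with Ibsp at 59.6 CPM in MSCs and 35.6 CPM in osteocytes, Alpl at 76.6 and 61 CPM, Fgf23 at 0.0475 and 0.0251 CPM and Col1a1 at 2800 and 2750 CPM. Averaged over treatments, 5 of the 10 genes of this list that were tested were called higher in osteocytes and 0 lower, against 12.2% and 6.23% of all genes tested, and one of the 5, Fgf23, was higher in FG-4592 but not in vehicle. Fgf23 had at most 8 counts in any library outside FG-4592-treated osteocytes. It passed the filter on low counts only through those libraries, so that its difference was built in. Mepe, Sost and Pdpn, which also mark osteocytes, had at most 2 counts in any library. The osteocytes also held adipocyte transcripts, with Adipoq at 1470 CPM against 7.77 CPM in the MSCs, both in vehicle. The part of such cells in the levels given below was not tested, and in bulk RNA fewer cells of a type and less RNA per cell cannot be told apart.

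Cbfa2t3, the corepressor, was undetected in vehicle-treated MSCs, and most of its counts came from vehicle-treated osteocytes. The 3 libraries of vehicle-treated MSCs had 0, 0 and 0 counts. Those of FG-4592-treated MSCs had 12, 7 and 0 counts, or 0.201, 0.104 and 0 CPM. One treated library thus had no count, like the vehicle libraries, and 2 lay above the floor. Vehicle-treated osteocytes had 92, 100 and 78 counts, or 1.39, 1.80 and 1.27 CPM, and FG-4592-treated osteocytes 16, 10 and 21 counts, or 0.246, 0.164 and 0.347 CPM. All 3 treated osteocyte libraries lay below all 3 vehicle libraries.

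In CPM, Cbfa2t3 averaged 0.102 ± 0.101 (SD, n = 3) in treated MSCs, 1.48 ± 0.278 in vehicle-treated osteocytes and 0.252 ± 0.0917 in FG-4592-treated osteocytes. The order of the means ran from vehicle-treated MSCs through treated MSCs and treated osteocytes to vehicle-treated osteocytes, but treated MSCs overlapped both neighbours in this order. Set against the floor, the mean in FG-4592-treated MSCs was at least 2.01-fold higher than in vehicle. This bound rests on few reads, 19 counts over the 3 treated libraries against 0, and it was 1.03 without replicate 1 of the treated MSCs and 3.02 without replicate 3. In osteocytes the vehicle mean was 5.88-fold the treated mean, and the fitted log2 fold change was −2.55 (SE 0.64). Its fitted change in MSCs, 5.66 (SE 1.59), depends on the prior count that replaces the zeros and is no bound.

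Ngfr, the neurotrophin receptor, had the same order of means at lower counts. It had 0, 0 and 0 counts in vehicle-treated MSCs and 2, 4 and 9 counts in FG-4592-treated MSCs, the latter 0.0336, 0.0596 and 0.141 CPM. Vehicle-treated osteocytes had 30, 31 and 94 counts, or 0.452, 0.557 and 1.53 CPM. One of these libraries, replicate 3, thus stood well above the other 2. FG-4592-treated osteocytes had 9, 8 and 10 counts, or 0.139, 0.131 and 0.165 CPM. Treated osteocytes lay below each vehicle-treated osteocyte library and overlapped the treated MSCs, where replicate 3 reached their range.

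The CPM of Ngfr averaged 0.0779 ± 0.0558 (SD, n = 3) in treated MSCs, 0.846 ± 0.594 in vehicle-treated osteocytes and 0.145 ± 0.018 in FG-4592-treated osteocytes. All 3 treated MSC libraries held reads where the vehicle libraries had none, although replicate 1 was under the floor. Their mean was at least 1.54-fold higher than the floor in vehicle, and without replicate 3 it fell below the floor, at 0.921 times it. In osteocytes the vehicle mean was 5.84-fold the treated mean, or 3.48-fold without replicate 3 of vehicle. The fitted log2 fold change in osteocytes was −2.53 (SE 0.654), and that in MSCs, 5.31 (SE 1.45), again depends on the prior count. Ngfr had more than 10 counts only in the 3 vehicle-treated osteocyte libraries, and leaving out any of them removed it from the genes tested. Cbfa2t3 passed this filter through 6 libraries, 5 of them osteocyte libraries, and Sema7a through all 12.

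Sema7a was measured far more deeply than the other 2 genes, and its 4 conditions did not overlap. Vehicle-treated MSCs had 236, 259 and 205 counts, or 4.29, 4.33 and 3.22 CPM. FG-4592-treated MSCs had 560, 606 and 539 counts, or 9.40, 9.03 and 8.42 CPM. Every treated library thus exceeded every vehicle library by a wide margin. Vehicle-treated osteocytes had 8395, 7605 and 7704 counts, or 126, 137 and 125 CPM. FG-4592-treated osteocytes had 3228, 3278 and 2912 counts, or 49.7, 53.6 and 48.1 CPM. The treated osteocytes stayed above both groups of MSCs.

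On the CPM scale Sema7a averaged 3.94 ± 0.627 (SD, n = 3) and 8.95 ± 0.495 in vehicle- and FG-4592-treated MSCs, and 129 ± 6.28 and 50.5 ± 2.84 in vehicle- and FG-4592-treated osteocytes. FG-4592 raised the mean 2.27-fold in MSCs, with a fitted log2 fold change of 1.19 (SE 0.0975). In osteocytes the vehicle mean was 2.57-fold the treated mean, with a log2 fold change of −1.36 (SE 0.0789). The response of osteocytes less that of MSCs was −2.54 (SE 0.125) on the log2 scale for Sema7a, against −8.21 (SE 1.63) for Cbfa2t3 and −7.84 (SE 1.54) for Ngfr, values that the choice of the genes fixes in sign and that depend on the prior count for the last pair.

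**Figure D1:**
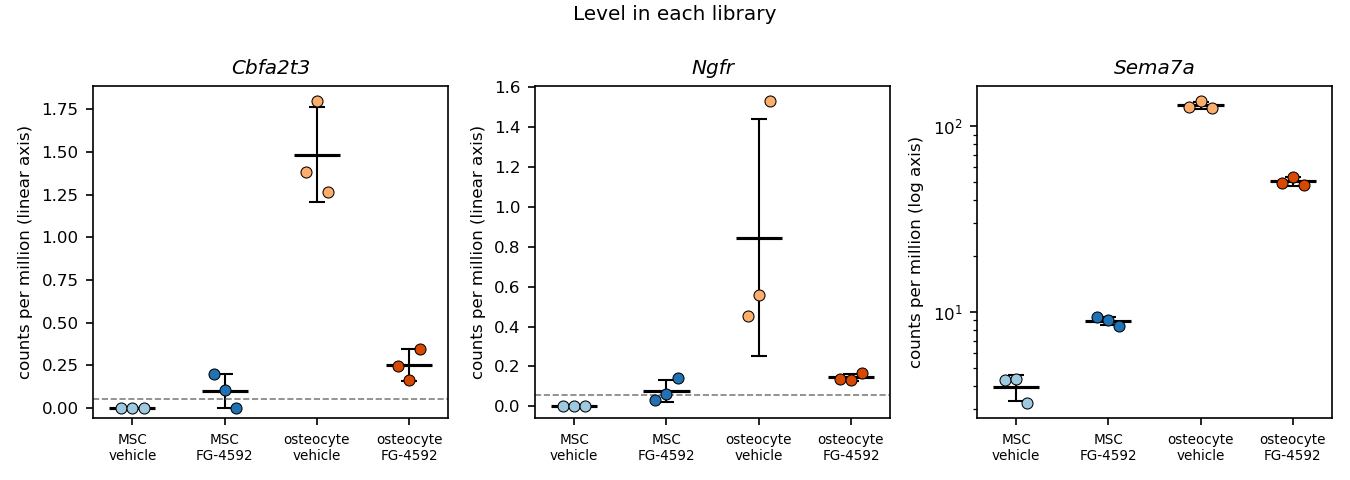
Level of Cbfa2t3, Ngfr and Sema7a in each of the 12 libraries, in CPM (linear axis for the first pair, log axis for Sema7a). Points are libraries, horizontal lines are the means of 3 libraries, bars are 1 SD and the dashed line is the highest floor of 3 counts, 0.0545 CPM. Vehicle-treated osteocytes are highest for each gene, and the groups of Sema7a do not overlap.

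Per length, the genes differed in level far more than in pattern. In RPKM, the CPM divided by the exonic length in kilobases, Sema7a averaged 39.3 ± 1.90 (SD, n = 3) in vehicle-treated osteocytes, a level above 93.6% of the genes tested. In the same cells Ngfr averaged 0.245 RPKM and Cbfa2t3 0.177 RPKM, above 18.2% and 14.9% of the genes tested. In FG-4592-treated osteocytes Sema7a averaged 15.3 RPKM, Ngfr 0.042 RPKM and Cbfa2t3 0.0301 RPKM. Sema7a was thus an abundant transcript of the osteocytes, and Cbfa2t3 and Ngfr were near the lower end of what the counts could measure. Even in vehicle-treated MSCs, where Cbfa2t3 and Ngfr had no read, Sema7a averaged 1.20 RPKM, above 35.6% of the genes tested.

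The difference between the cell types, averaged over vehicle and FG-4592, was not used to choose the genes, although it rests on the same 12 libraries. It was tested for Sema7a, which passed the filter on low counts in every library. Sema7a was higher in osteocytes by a log2 fold change of 3.77 (SE 0.0651, edgeR FDR 5.66e-17). Its mean was 90 CPM in osteocytes and 6.45 CPM in MSCs, a difference of 83.5 CPM (exact permutation within treatments, two-sided p = 0.005, the smallest p that the 400 arrangements allow). Cbfa2t3 and Ngfr could not have passed the filter without osteocyte libraries, which builds a difference in, so their values are a description without a test. Cbfa2t3 averaged 0.868 CPM in osteocytes and 0.0509 CPM in MSCs, and Ngfr 0.495 and 0.0389 CPM. Their fitted log2 fold changes, 5.41 (SE 0.748) and 4.79 (SE 0.731), depend on the prior count.

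Within vehicle, osteocytes exceeded MSCs at least 29.3-fold for Cbfa2t3, at least 16.7-fold for Ngfr (9.97-fold without replicate 3 of the osteocytes) and 32.8-fold for Sema7a. Within FG-4592 the ratios of the means were 2.47, 1.86 and 5.64. The gap between the cell types was 1.48 CPM for Cbfa2t3 in vehicle and 0.15 CPM in FG-4592, so that 10.1% of it was left. For Ngfr 7.91% of a gap of 0.846 CPM was left, and for Sema7a 33.1% of a gap of 126 CPM. The gap and share for Ngfr lean on replicate 3 of the vehicle-treated osteocytes, at 1.53 CPM where the other libraries had 0.452 and 0.557 CPM. The genes thus stood closer between the cell types under FG-4592 than under vehicle, a description of the values that chose them. The fitted difference under FG-4592 was 1.31 (SE 0.726) for Cbfa2t3, 0.87 (SE 0.73) for Ngfr and 2.50 (SE 0.0864) for Sema7a on the log2 scale. For Cbfa2t3 and Ngfr it rests on single libraries. Without replicate 1 of the treated MSCs the ratio for Cbfa2t3 was 4.84, and without replicate 3 that for Ngfr was 3.11.

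Among all genes tested, 4.12% were called up and 5.17% down with FG-4592 in MSCs, and 6.25% up and 4.26% down in osteocytes. The response differed between the cell types, by the interaction contrast, for 3.94% of genes with a higher and 1.07% with a lower value in osteocytes. Only 0.0182% of the genes tested were called up in MSCs and down in osteocytes, the 3 described here, whereas 18 genes were called down in MSCs and up in osteocytes. Of those 18, 11 were also called higher in osteocytes than in MSCs, averaged over treatments, and 1 lower, against 12.2% and 6.23% of all genes tested. Among the 2005 genes called higher in osteocytes, 5.99% were up with FG-4592 in MSCs and 11.7% were down with it in osteocytes.

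How few genes were chosen depended on the cutoffs. Past the FDR in both cell types, at any fold, 200 genes rose in MSCs and fell in osteocytes. Past both fold cutoffs, at any FDR, there were 46 genes, of which 43 missed the FDR in at least one cell type. Of the chosen genes Sema7a lay closest to the cutoffs, by its rise in MSCs. Next after it, past the FDR but short of the fold in MSCs, came Il33, an alarmin cytokine, with log2 fold changes of 0.94 (SE 0.314) in MSCs and −1.44 (SE 0.261) in osteocytes. Its means were 0.442, 0.859, 5.63 and 2.07 CPM in vehicle- and FG-4592-treated MSCs and vehicle- and FG-4592-treated osteocytes, the same order of conditions as for Sema7a. Akr1c18, a steroid dehydrogenase, had changes of 0.89 and −1.36, with means of 5.8, 10.8, 41.9 and 16.3 CPM in that order. Adra1b, an adrenergic receptor, changed by 0.90 and −0.85, Fabp5, a fatty acid carrier, by 0.72 and −1.67 and Slc6a7, a proline transporter, by 0.78 and −0.71. Averaged over treatments, Il33 and Akr1c18 were called higher in osteocytes and Slc6a7 lower.

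**Figure D2:**
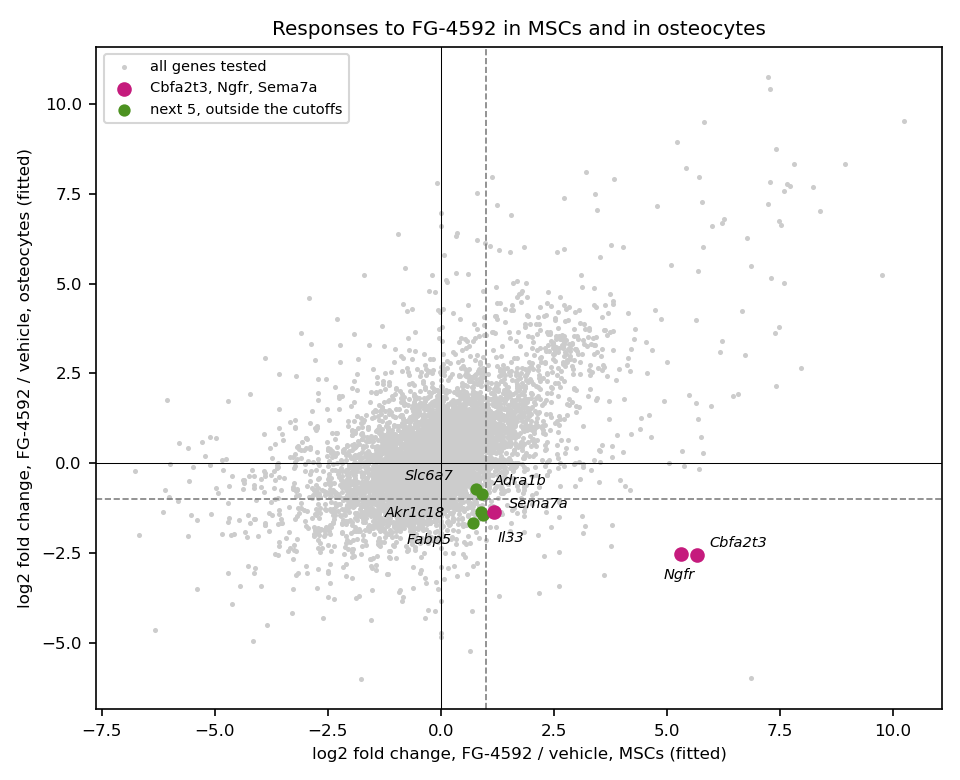
Fitted log2 fold change with FG-4592 in MSCs (horizontal axis) and in osteocytes (vertical axis) for the 16484 genes tested (grey), the 3 chosen genes and the next 5 outside the cutoffs. Dashed lines mark the fold cutoffs of 1 and −1; Sema7a sits near the cutoff at 1.19, and the horizontal positions of Cbfa2t3 and Ngfr, 5.66 and 5.31, depend on the prior count.

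Over the 12 libraries the log2 CPM of the genes moved together, with Pearson's r of 0.933 for Cbfa2t3 and Sema7a, 0.915 for Ngfr and Sema7a and 0.862 for Cbfa2t3 and Ngfr, a description of genes chosen for one pattern. The genes most like Sema7a among 12152 candidates were Col4a2, a basement membrane collagen chain (r = 0.991), Adam17, a membrane protease (0.99), Lrrc8b (0.989), Prpf38b (0.988) and Stat5a (0.987). Their own responses were smaller. Col4a2, for example, had log2 fold changes of 0.28 in MSCs and −0.47 in osteocytes, and Lrrc8b, a subunit of volume-regulated anion channels, 0.70 and −0.66. Most like Cbfa2t3 were Fam20c (0.96), the kinase of secreted proteins that include those of bone matrix, Akr1c18 (0.96), Il33 (0.959), Eme2 (0.955) and Slc35g1 (0.954). Fam20c averaged 25.5 and 33.5 CPM in vehicle- and FG-4592-treated MSCs and 88.5 and 50.4 CPM in vehicle- and FG-4592-treated osteocytes. Most like Ngfr were Atp6v0a2 (0.972), Rnf185 (0.962), Mettl1 (0.951), Larp1b (0.949) and Plpbp (0.949). These lists depend on the measure. With a prior count of 0.5, 2 of the 5 genes for Cbfa2t3, 1 of 5 for Ngfr and 4 of 5 for Sema7a were again among the closest 5, and with Spearman's rho 1, 0 and 0.

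Along the chromosome, 2 of the 12 tested genes nearest to the 3 genes were called for FG-4592 in a cell type, while of all genes 4.12% rose and 5.17% fell by the same rule in MSCs, against 6.25% and 4.26% for osteocytes, and nothing is read from so few. Islr, 193403 bases from Sema7a, was called lower with FG-4592 in MSCs (log2 fold change −2.80, SE 0.0714, edgeR FDR 4.02e-14) and changed by −0.74 in osteocytes. Nxph3, 54248 bases from Ngfr, was called higher in osteocytes with FG-4592 (edgeR FDR 0.0254), at 0.186 CPM against 0.0351 CPM in vehicle, a mean under the floor, so that its fitted fold depends on the prior count. The other 10 neighbours were called in neither cell type.

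Partners of Cbfa2t3 were read in the same fit. Of 37 listed factors, corepressors and glycolytic genes, 32 were tested, 1 was called up and 1 down with FG-4592 in each cell type, or 3.12% each way, while over all genes tested the shares up and down were 4.12% and 5.17% for MSCs and 6.25% and 4.26% for osteocytes. Averaged over treatments, 5 partners (15.6%, against 12.2% of all genes) were called higher in osteocytes and 0 lower. The median log2 fold change of the list was −0.0555 in MSCs and 0.0331 in osteocytes, against −0.045 and 0.00154 over all genes tested. Its paralogue Runx1t1 averaged 0.23 and 0.119 CPM in vehicle- and FG-4592-treated MSCs and 0.762 and 0.511 CPM in vehicle- and FG-4592-treated osteocytes, with no call for FG-4592. Cbfa2t2, the other paralogue, lay between 48.2 and 57.7 CPM in the means of the 4 conditions and had changes of 0.03 and 0.04. Runx1, the Runx factor that is fused to ETO proteins in leukemia, changed by 0.07 (SE 0.0589) in MSCs. In osteocytes it changed by 0.88 (SE 0.0587, edgeR FDR 4.03e-09), under the fold cutoff. Runx2, the master factor of osteoblasts, changed by −0.14 and −0.38, Runx3 by −0.18 and 0.17, and their common partner Cbfb by 0.03 and −0.27.

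Zbtb16, a zinc finger repressor that binds ETO proteins, was called lower in MSCs, where it averaged 0.684 CPM in vehicle and 0.22 CPM in FG-4592 (−1.65, SE 0.485, edgeR FDR 0.0129). Its counts there were 25, 60 and 38 in vehicle and 25, 13 and 3 in FG-4592, the last at the floor. In osteocytes it averaged 2.20 and 3.06 CPM (0.48, SE 0.381). The difference between its responses was 2.13 (SE 0.618, edgeR FDR 0.0191). The glycolytic genes, which CBFA2T3 is reported to restrain, differed among themselves. Pdk1, which keeps pyruvate out of the mitochondrial cycle, rose in MSCs from 18.6 to 543 CPM (4.87, SE 0.0713, edgeR FDR 6.89e-17) and in osteocytes from 23.5 to 379 CPM (4.01, SE 0.0684, edgeR FDR 2.65e-16). Pfkfb3, which makes the activator of phosphofructokinase, fell in osteocytes from 110 ± 5.07 to 30.2 ± 2.24 CPM (−1.86, SE 0.0775, edgeR FDR 1.18e-11), as Cbfa2t3 did, but in MSCs changed by −0.39 (SE 0.0836). Its response in osteocytes was lower than that in MSCs (−1.47, SE 0.113, edgeR FDR 1.46e-07). Pfkfb4 changed by 0.44 in MSCs and 0.81 in osteocytes.

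Partners of Ngfr were called about as often as genes in general. Of 39 listed partners, 29 were tested, 1 was called up and 1 down in MSCs and 2 up and 1 down in osteocytes. These are 3.45% up and 3.45% down in MSCs, against 4.12% and 5.17% of all genes, and 6.9% and 3.45% in osteocytes, against 6.25% and 4.26%. The list's median was 0.0638 in MSCs and 0.114 in osteocytes. Bdnf, a neurotrophin ligand, averaged 10.5 ± 0.421 and 16.9 ± 0.826 CPM in vehicle- and FG-4592-treated MSCs, and 7.90 ± 1.35 and 9.73 ± 2.05 CPM in vehicle- and FG-4592-treated osteocytes. It changed by 0.68 (SE 0.137, edgeR FDR 8.06e-04) in MSCs, short of the fold cutoff, and by 0.30 in osteocytes. Ntf5, another ligand, was called up in osteocytes (edgeR FDR 0.0125), with 2, 3 and 0 counts in vehicle, all at or under the floor, and 12, 12 and 13 in FG-4592, so that its fitted fold depends on the prior count. The other partner called up there was Lingo1, a coreceptor of p75 in neurons, named after its values were seen to complete the count. It averaged 0.315 ± 0.194 CPM in vehicle- and 1.31 ± 0.329 CPM in FG-4592-treated osteocytes (2.06, SE 0.404, edgeR FDR 5.32e-04) and changed by −0.15 in MSCs. Ntf3, a further neurotrophin, and Ntrk2, the Trk receptor of BDNF, were too low to be tested, and Ntrk3, another Trk receptor, changed by −0.30 and 1.05 without a call.

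Sort1, which encodes sortilin, the coreceptor for pro-neurotrophins, was higher in osteocytes by a log2 fold change of 3.34 (SE 0.0682, edgeR FDR 4.54e-16), like Ngfr. It averaged 15.4 and 11.7 CPM in vehicle- and FG-4592-treated MSCs and 139 and 133 CPM in vehicle- and FG-4592-treated osteocytes, with changes of −0.40 and −0.06. Tnfrsf19, a relative of Ngfr in the TNF receptor superfamily, was called lower in both cell types. In MSCs it had 30, 20 and 26 counts in vehicle and 2, 1 and 1 in FG-4592, all 3 treated libraries under the floor. In osteocytes it fell from 53.7 ± 4.85 to 17 ± 1.95 CPM (−1.66, SE 0.103, edgeR FDR 1.57e-09). Ripk2, a kinase that binds the receptor's intracellular part, was called up in MSCs, from 28.3 to 62.5 CPM (1.14, SE 0.0773, edgeR FDR 6.58e-09), and changed by 0.64 in osteocytes.

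Of the receptors of Sema7a, Plxnc1 and Itga1 were called for FG-4592. Plxnc1, its plexin receptor, was called lower in both cell types, from 0.882 ± 0.212 to 0.435 ± 0.178 CPM in MSCs (−1.03, SE 0.331, edgeR FDR 0.0218) and from 3.49 ± 0.954 to 1.61 ± 0.0962 CPM in osteocytes (−1.12, SE 0.289, edgeR FDR 0.00488). Itgb1, the beta1 integrin subunit, ranged between 1160 and 1320 CPM in the means of the 4 conditions and changed by 0.17 and 0.13. Itga1, its alpha1 partner, showed the reverse of the Sema7a pattern. It averaged 247 ± 5.46 CPM in vehicle-treated and 90.5 ± 4.69 CPM in FG-4592-treated MSCs (−1.45, SE 0.0563, edgeR FDR 6.41e-12). In osteocytes it averaged 273 ± 14.8 CPM in vehicle and 758 ± 40.5 CPM in FG-4592 (1.47, SE 0.0559, edgeR FDR 3.63e-12). The difference between these responses was 2.92 (SE 0.0793, edgeR FDR 2.48e-12), and the groups of libraries did not overlap within either cell type. Of its exonic bases 685 also belong to Gm49395, so part of its counts is shared. All 10 listed partners of Sema7a were tested, and 2 of them (20%, against 5.17% of all genes) were called down in MSCs, and 1 (10%) was called up and 1 (10%) down in osteocytes, against 6.25% and 4.26% of all genes. The list's median was 0.0479 in MSCs and −0.0185 in osteocytes. Exonic bases of Adam17, Bdnf, Runx1, Runx2, Sort1, Plxnb1 and Plxnc1 also belong to another gene. Read pairs that overlap both were counted for each, and how many came from the other gene is uncertain.

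**Figure D3:**
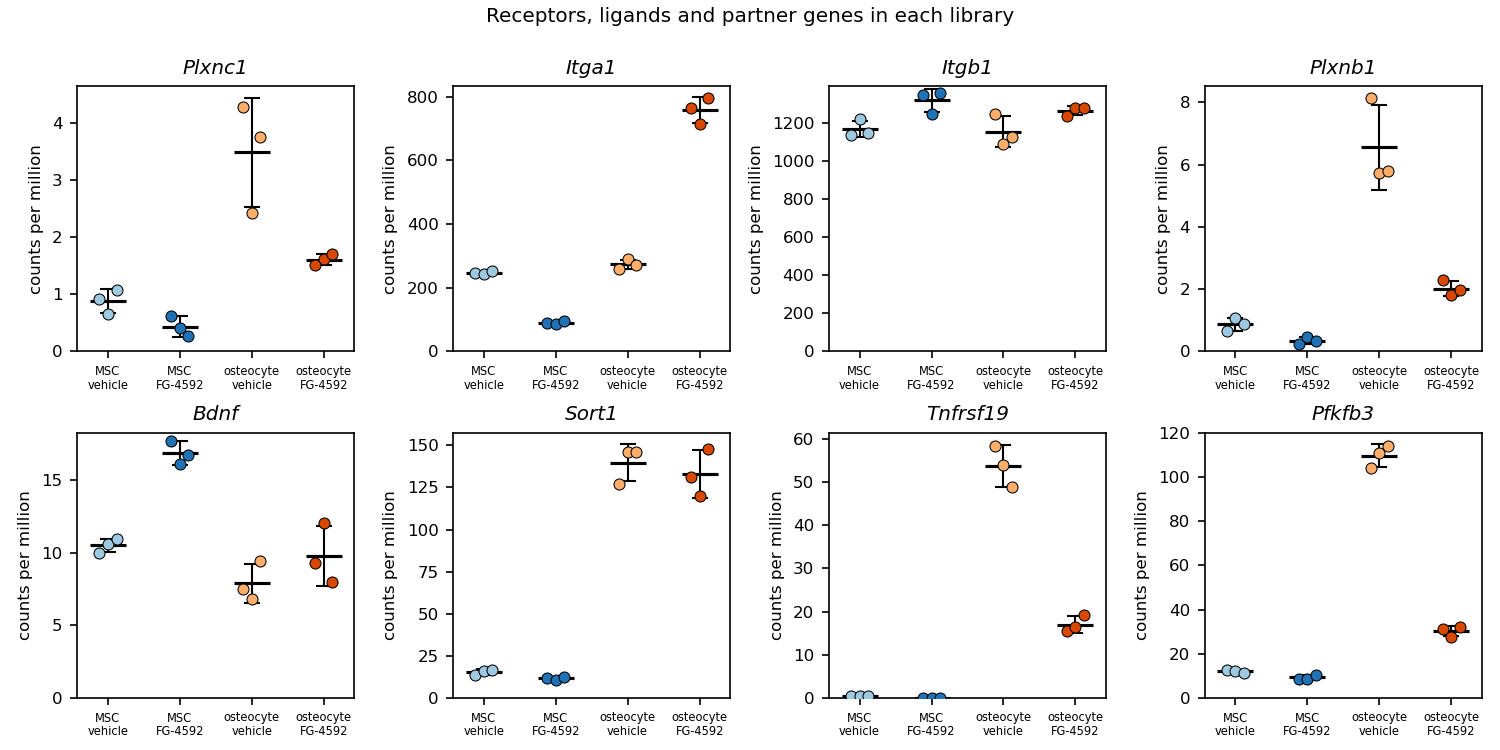
Level of 8 partner genes in each library, in CPM (linear axes from 0): receptors and other plexins of the Sema7a family in the upper row, and Bdnf, Sort1, Tnfrsf19 and the glycolytic gene Pfkfb3 in the lower. Points are libraries, lines are means of 3 libraries and bars are 1 SD. Itga1 is lower with FG-4592 in MSCs (247 against 90.5 CPM) and higher in osteocytes (273 against 758 CPM), the reverse of Sema7a.

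Of 29 other semaphorins, plexins and neuropilins, 27 were tested. In MSCs 1 was called up and 3 down, and in osteocytes 6 up and 4 down, or 3.7% and 11.1% of those tested in MSCs (4.12% and 5.17% over all genes) and 22.2% and 14.8% in osteocytes (6.25% and 4.26%). The list's median was −0.102 in MSCs and 0.293 in osteocytes. Sema6b, a transmembrane semaphorin, rose in both, from 2.72 to 8.75 CPM in MSCs (1.69, SE 0.145, edgeR FDR 1.18e-07) and from 2.79 to 17.4 CPM in osteocytes (2.64, SE 0.145, edgeR FDR 3.90e-10). Sema3g, a secreted semaphorin, rose in osteocytes, from 0.884 ± 0.53 to 24.3 ± 3.84 CPM (4.79, SE 0.345, edgeR FDR 1.05e-08), with −0.25 (SE 0.604) in MSCs and a difference between the responses of 5.05 (SE 0.73, edgeR FDR 1.03e-04). Sema3f was called up in osteocytes too, from 9, 5 and 0 counts in vehicle to 50, 7 and 23 in FG-4592, groups that overlap in CPM. Its treated mean was 0.421 CPM, or 0.247 CPM without replicate 1, against 0.0751 CPM in vehicle. The other semaphorins called in osteocytes are named after their values were seen, to complete the count. Sema3e (1.19, SE 0.237) and Sema4g (1.18, SE 0.258) were called up. Sema4d is also counted, but it passed the filter only through the 3 FG-4592-treated osteocyte libraries, with 30, 56 and 52 counts against at most 5 in any other library, so that a difference was built in. Sema5a was called down, from 234 ± 35.1 to 103 ± 0.693 CPM (−1.18, SE 0.0874, edgeR FDR 1.42e-08), and was higher in osteocytes than in MSCs (2.33), as Sema7a was. In MSCs, however, Sema5a changed by −0.56 (37.5 and 25.5 CPM), where Sema7a was higher with FG-4592.

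Besides Plxnc1, the plexins Plxna2 and Plxnb1 were called lower in both cell types. Plxna2 fell from 626 to 248 CPM in MSCs (−1.34, SE 0.0461, edgeR FDR 1.42e-12) and from 529 to 143 CPM in osteocytes (−1.89, SE 0.0469, edgeR FDR 1.85e-14). Plxnb1 fell from 0.868 to 0.342 CPM in MSCs (−1.33, SE 0.289, edgeR FDR 0.00155) and from 6.55 to 2.02 CPM in osteocytes (−1.70, SE 0.232, edgeR FDR 1.65e-05). Plxnd1 was called lower in osteocytes (−1.31, SE 0.0762, edgeR FDR 7.68e-10) and changed by −0.86 in MSCs. Plxnb3, named after its values were seen, was called lower in MSCs (−1.30, SE 0.466, edgeR FDR 0.0374) and changed by −0.07 in osteocytes. Over all 4 lists, 98 of 115 genes were tested. The lists held 3 genes called up and 7 down in MSCs, 3.06% and 7.14% of those tested (4.12% and 5.17% of all genes), and 10 up and 7 down in osteocytes, 10.2% and 7.14% (6.25% and 4.26% of all genes). The responses differed between the cell types for 8 partners with a higher and 1 with a lower value in osteocytes, 8.16% and 1.02% of those tested, against 3.94% and 1.07% of all genes.

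Markers of the cells in which the 3 genes are best known were read in the same libraries. Of 7 Schwann and neural crest genes, whose cells express Ngfr, Foxd3 had no count and Sox10 at most 6 counts in any library. The summed level of the list was 54.4 to 58.1 CPM and 23.5 to 28.2 CPM in vehicle- and FG-4592-treated MSCs, and 125 to 134 CPM and 56.6 to 59 CPM in vehicle- and FG-4592-treated osteocytes. Nearly all of it was S100b, at 54.2, 23.8, 126 and 55.5 CPM in that order, which was lower with FG-4592 in both cell types. Of 10 blood progenitor, erythroid and megakaryocyte genes, which accompany Cbfa2t3, Hbb-bs had no count and Gata1 and Ptprc at most 4 and 9 counts in a library.

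Their summed level was 4.23 to 5.01 and 2.92 to 3.59 CPM in vehicle- and FG-4592-treated MSCs, and 6.38 to 8.03 and 6.25 to 8.2 CPM in vehicle- and FG-4592-treated osteocytes. Most of it was Itga2b, at 3.63, 1.63, 1.98 and 1.76 CPM in that order, and Cd34, at 0.604, 1.58, 4.23 and 4.57 CPM. With FG-4592 in MSCs, Itga2b was called lower and Cd34 higher. Kit, of the same list, averaged 0, 0.0149, 0.857 and 0.307 CPM in that order, and was not called for FG-4592 in either cell type. Of 8 lymphoid and myeloid genes, whose cells express Sema7a, Cd4 had at most 1 count in any library. Their sum was 8.7 to 8.88 and 2.83 to 4.3 CPM in vehicle- and FG-4592-treated MSCs, and 17.3 to 20.2 and 9.38 to 11.3 CPM in vehicle- and FG-4592-treated osteocytes, most of it Lyz2. In MSCs the summed Schwann, blood and lymphoid lists were lower with FG-4592, where the 3 genes were higher, although single members were higher there too, with Cd34 at 0.604 CPM in vehicle and 1.58 CPM in FG-4592 and Erbb3 at 0.0121 and 0.0783 CPM. In osteocytes the Schwann and lymphoid sums, mostly S100b and Lyz2, were lower with FG-4592, as the 3 genes were, while Mbp averaged 0.148 CPM in vehicle and 0.904 CPM in FG-4592 and Erbb3 0.258 and 0.288 CPM. Their part in the result was not tested. The summed adipocyte list was 597 to 603 CPM and 797 to 826 CPM in vehicle- and FG-4592-treated MSCs, higher with FG-4592 as the 3 genes were, most of it Lpl at 592 and 809 CPM, while Adipoq was 7.77 and 2.86 CPM. In osteocytes it was 3150 to 3930 CPM in vehicle and 3270 to 3770 CPM in FG-4592, ranges that overlap, while the 3 genes were lower with FG-4592. Its part was not tested. Of the 10 osteocyte and osteoblast genes tested, 5 were called down with FG-4592 in osteocytes, as the 3 genes were, against 4.26% of all genes. Dmp1 averaged 11.2 CPM in vehicle and 2.06 CPM in FG-4592, Phex 57.6 and 2.83, Bglap 4.57 and 1.89, Bglap2 7.61 and 2.81 and Ibsp 35.6 and 12.2 CPM. The 1 called up was Fgf23, at 0.0251 and 1.61 CPM. It passed the filter only through the FG-4592-treated osteocyte libraries, so that this difference was built in. In MSCs, where the 3 genes were higher, 4 of the 10 (Dmp1, Phex, Ibsp and Alpl) were called down and 0 up, against 5.17% and 4.12% of all genes. The list's sum, 6010 to 6440 CPM and 7180 to 7340 CPM in vehicle- and FG-4592-treated MSCs and 7660 to 9540 CPM and 7310 to 8990 CPM in osteocytes, was mostly Spp1 and Col1a1. The part of these changes in the result was not tested. The endothelial sum was 0.145 to 0.251 CPM and 0.268 to 1.11 CPM in vehicle- and FG-4592-treated MSCs, and 0.813 to 1.93 CPM and 1.77 to 2.64 CPM in vehicle- and FG-4592-treated osteocytes. It thus was higher with FG-4592 in MSCs, as the 3 genes were, mainly through Tek, at 0.128 and 0.532 CPM, and its part was not tested. The mesenchymal sum was 1430 to 1460 CPM and 1340 to 1370 CPM in vehicle- and FG-4592-treated MSCs, and 1820 to 1870 CPM and 1570 to 1620 CPM in vehicle- and FG-4592-treated osteocytes. Most of it was Pdgfra and Pdgfrb, lower with FG-4592 in both cell types. Ly6a was higher, at 216 and 396 CPM in MSCs and 55.8 and 320 CPM in osteocytes, where it was called up. Nt5e was called down in MSCs, at 0.464 and 0.229 CPM, and was 18.7 and 32.4 CPM in osteocytes. Their part was not tested.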

How the data were processed

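RNAseq was done on 12 libraries of MPC2 cells. The authors mapped the reads to mm10 with STAR 2.7.2a and deposited, without normalization, 1 count per Gencode M22 gene and library, made with featureCounts (Subread 1.6.2). Reads needed a mapping quality of 10 or more, a pair was counted for every gene it overlapped, and strand was not used. Groups follow the labelled cell type and treatment. The labels do not say whether replicates were separate cultures, so the p-values measure only the spread between these libraries.

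From the counts, genes above 10 counts in 3 or more libraries were fitted over all 12 libraries in edgeR 4.0.16 under R 4.3.3 by quasi-likelihood, after TMM scaling, with 8 residual degrees of freedom and Benjamini-Hochberg adjustment over all 16484 genes. Calls needed a fold change beyond 1 on the log2 scale, in either direction, with FDR under 0.05. CPM used the TMM-scaled library size, and RPKM also the exonic length in the deposited table. The fit was also run on simulated data, with changes planted only in genes averaging above 1 CPM. Cbfa2t3 and Ngfr averaged less, so that run does not cover them. Likeness was Pearson's r of log2 CPM with a prior count of 2, among genes averaging 100 counts or more in their highest condition. Exonic overlaps came from GenomicRanges 1.54.1 and near-identical stretches from blastn 2.17.0.

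The 3 genes, and the partner and marker lists, were chosen with earlier results of these data known. Named genes were the 3 genes, their paralogues and direct partners, up to 6 called partners per list by fold with the same minimum of 100 counts, the 5 genes most like each, the 2 nearest tested genes on each side that were called, and the 5 genes just outside the cutoffs; marker genes were named as examples, and further partners that complete a count after their values were seen. Some listed genes are not reported here. The alternatives were the likelihood ratio test, DESeq2 1.42.0, RLE factors, library size alone, filterByExpr, no filter, the cell type's own libraries, a replicate block, removal of exon-sharing genes and each library left out in turn. Same-numbered libraries were not correlated beyond others, and the block was not used for the main values.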

Additional observations from a re-analysis of the deposited data

Results flagged for a closer look

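The responses to FG-4592 differed between osteocytes and MSCs for Cbfa2t3 by −8.21, for Ngfr by −7.84 and for Sema7a by −2.54 on the log2 scale (osteocytes minus MSCs). These are fixed by the choice of the genes and were not tested.

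For the partners listed, the interaction contrast in edgeR is the signed log2 fold change in osteocytes less that in MSCs. It was called positive for Zbtb16 (2.13, FDR 0.0191), Lingo1 (2.21, FDR 0.00712), Tnfrsf19 (2.56, FDR 0.00177), Itga1 (2.92, FDR 2.48e-12), Sema3g (5.05, FDR 1.03e-04), Sema3e (1.34, FDR 0.00621), Sema6c (1.31, FDR 7.33e-04) and Sema6d (1.57, FDR 6.03e-06), and negative for Pfkfb3 (−1.47, FDR 1.46e-07). Pfkfb3 fell more in osteocytes than in MSCs, and Tnfrsf19 fell in both cell types, less in osteocytes. The value of Tnfrsf19 rests on treated MSC libraries of 2, 1 and 1 counts, and that of Zbtb16 on treated MSC libraries of 25, 13 and 3 counts. With 3 libraries per condition, no test for a single library that stands apart was made.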

How the results depend on the processing

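The count of genes up in MSCs and down in osteocytes, 3 here, was 8 with the likelihood ratio test, 8 without a filter on low counts and 2 without genes that share exonic bases, which drops Cbfa2t3 by construction. With each library left out in turn it ranged from 3 to 6, with 5 without replicate 3 of vehicle-treated MSCs, 5 without replicate 1 and 6 without replicate 3 of FG-4592-treated MSCs. In fits over both cell types all 3 genes stayed among them, except Cbfa2t3 in the alternative just named and Ngfr, which was not tested without any 1 of the 3 vehicle-treated osteocyte libraries. With the libraries of one cell type alone the count was not made, since Cbfa2t3 and Ngfr were too low in MSCs to be tested there. The fitted difference of Cbfa2t3 between the cell types under FG-4592, 1.31, was past the cutoffs without replicate 1 of FG-4592-treated MSCs, at 2.21 (range with a library left out 0.73 to 2.21). Averaged over treatments, the log2 fold changes ranged from 5.11 to 5.86 for Cbfa2t3 and 4.49 to 5.14 for Ngfr over the alternatives, and 3.72 to 3.82 for Sema7a, the last with an FDR of at most 6.43e-15.

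Partner genes called up in MSCs, 3 here, were 5 with the libraries of that cell type alone and 3 to 5 with a library left out, with 5 without replicate 2 of vehicle-treated MSCs or replicate 1 of vehicle-treated osteocytes. Without exon-sharing genes, which leaves fewer to test, 4 partners rather than 7 were called down in MSCs and 10 rather than 17 higher in osteocytes. The other 513 values kept their direction and side of the cutoffs or, for counts, came close to the count given in the report. The cause of the other changes was not tested.

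The replicate numbers did not pair the libraries: same-numbered libraries of vehicle and FG-4592 had correlations of their deviations from −0.0252 to 0.0241 in MSCs and −0.0419 to 0.0406 in osteocytes, and 1 of 12 libraries was closest to one of its own number. With the replicate block the count stayed 3, and the log2 fold change of Sema7a was 1.19 in MSCs and −1.36 in osteocytes. Depth limits Cbfa2t3 and Ngfr in MSCs, where 19 and 15 reads over 3 treated libraries carry the response.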
